A study of Mus musculus with 786 samples.

Results

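The 35 interferon-stimulated antiviral genes described here were taken by gene name from every expression table of the series. All 35 stood among the 21664 genes of the single-cell tables, and 30 stood among the 18855 genes of the bulk table, where Irf9, Ddx60, Xaf1, Cmpk2 and Samd9l were not used. Single cells were the wells whose label gave a cell count of 1 and in which at least 1000 genes reached 1 FPKM (fragments per kilobase of transcript scaled to the library's mapped fragments). That rule kept 373 of 460 wells with 1 cell, from 7 plates. A gene is called detected in a well at 1 FPKM or more.

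All mice were C57BL/6 animals 6 to 8 weeks old, and blood-forming cells of their bone marrow were sorted by surface antigens. Single haematopoietic stem cells (HSC) carried the markers CD48-CD150+CD135-CD34-, and single multipotent precursors 1 (MPP1) carried CD48-CD150+CD135-CD34+. Normal mice gave HSC plates 1 and 2 (50 and 53 cells used) and MPP1 plates 1 and 2 (51 and 48 cells), and mice that had been bled gave 1 HSC plate (48 cells) and 1 MPP1 plate (50 cells). HSC plate 3 (73 cells) was prepared on another instrument with an RNA spike-in, and its note on the animals gives normal as well as bled mice. The bulk data were 18 sorted populations of 1000 cells with 1 library each. The bulk HSC library is labelled CD34+, which is the gate of MPP1, so its label conflicts with the single-cell HSC gate. Nothing in the labels says how many mice gave a plate, so p-values over plates measure only the spread between these plates.

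Type I and type III interferons bind receptors that activate JAK kinases, which phosphorylate STAT transcription factors such as STAT2. With IRF9 these form a complex that binds the interferon-stimulated response element in the promoters of antiviral genes. The products sense foreign nucleic acid, degrade or block viral RNA, and amplify or limit the response. Haematopoietic stem cells are known to express part of this program without infection, and interferon is known to drive resting stem cells into division.

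The sorted identities were checked first. Cd34 was detected in 34.0% and 56.6% of cells on HSC plates 1 and 2, in 42.5% on HSC plate 3 and in 70.6% and 70.8% on the MPP1 plates. It was detected in 20.8% of bled HSC and 66.0% of bled MPP1, so every MPP1 plate lay above every HSC plate. Transcripts of the other gate antigens matched the gates less closely: Slamf1 (CD150) was detected in 4.00% to 27.1% of cells by plate, Flt3 (CD135) in up to 19.6% (MPP1 plate 1) and Cd48 in up to 8.00% (bled MPP1). The median number of detected genes ran from 1969 to 3046.5 per cell by plate, against 147.5 to 841 in the 150 wells labelled with no cell. Total FPKM per cell had plate medians between 210791 and 286197, and read depth is unknown. Siglech, the defining surface marker of plasmacytoid dendritic cells, which are the strongest interferon producers, was not detected in any of the 373 cells. Of 7 markers of that cell type, 5 or 6 were not detected on each plate, and their summed mean level was 7.26 to 18.2 FPKM. Of 7 monocyte and macrophage markers, 3 to 5 were not detected on each plate, and their summed mean level was 101 to 220 FPKM.

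Most of the 35 genes were detected in a minority of cells, as were most genes of these tables. The median share over members was 28.0% and 28.3% on HSC plates 1 and 2. Over all genes detected on the plate it was 12.0% and 17.0%. HSC plate 3 had 15.1% against 11.0%, and the MPP1 plates 13.7% against 13.7% and 14.6% against 16.7%. Bled HSC had 14.6% against 14.6%, and bled MPP1 18.0% against 18.0%. Lgals3bp, a secreted glycoprotein, was the most widely detected, in 249 of 373 cells. Dtx3l, a ubiquitin ligase, was detected in 182 cells, and Irf1, a transcription factor induced by interferon, in 155. Samd9l, Ifi35 and Oasl2 followed with 128, 127 and 125 cells. At the other end, Ifit3 and Mx1 were each detected in 14 cells and Oasl1 in 15, while 30 members were detected on all 7 plates and 8 members in under 10% of cells.

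**Figure D1:**
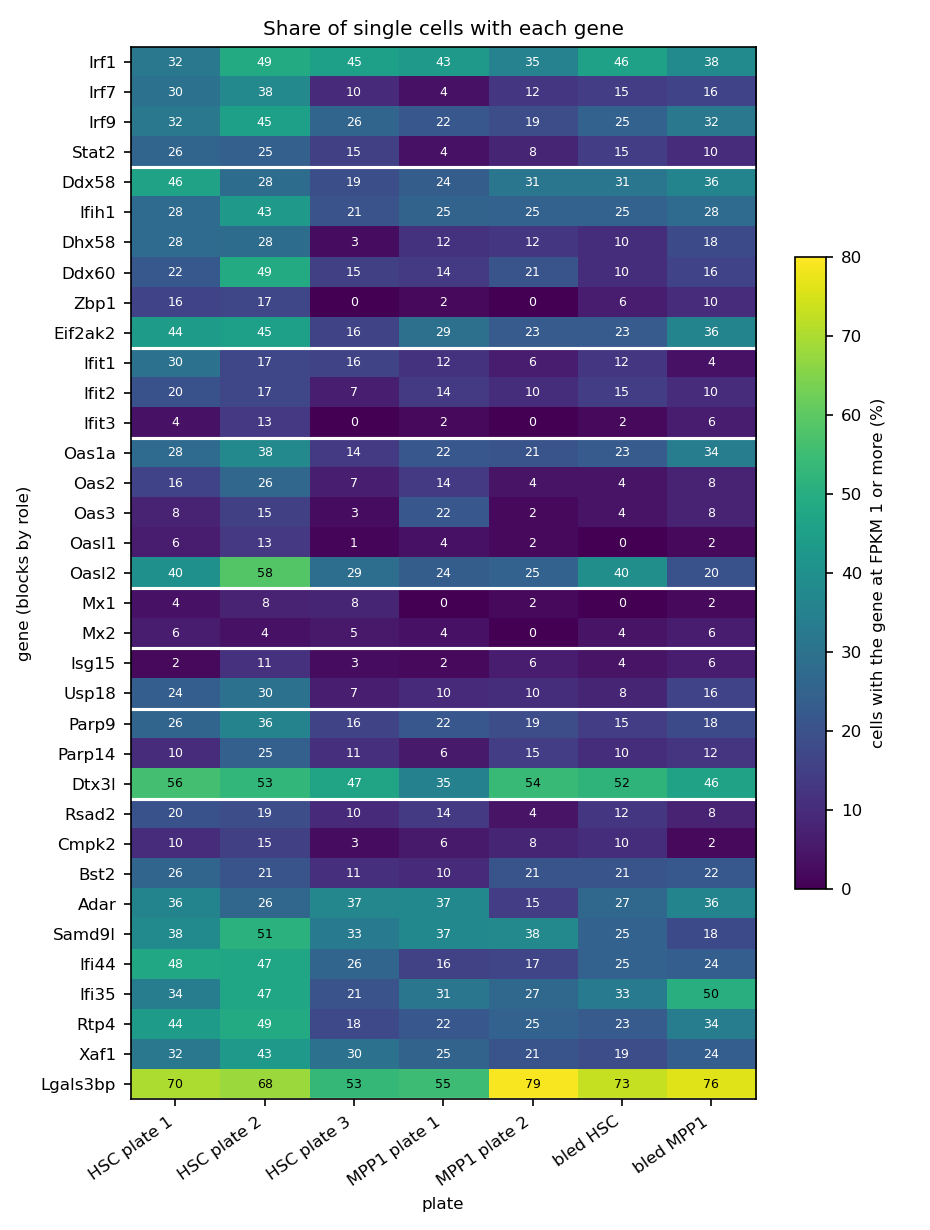
Percent of cells with each of the 35 genes at FPKM 1 or more (colour and printed number) on each of 7 plates, with genes in blocks by role. Lgals3bp lies between 53.4% and 79.2% on every plate, while Ifit3, Mx1, Oasl1 and Isg15 stay at or below 13.2%.

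The share of cells was next read plate by plate. Lgals3bp was detected in 70.0%, 67.9% and 53.4% of cells on HSC plates 1, 2 and 3, in 54.9% and 79.2% on the MPP1 plates, and in 72.9% and 76.0% of bled HSC and bled MPP1. The MPP1 plates lay on either side of HSC plates 1 and 2, so the groups overlapped. Dtx3l was detected in 56.0%, 52.8% and 46.6% of HSC, in 35.3% and 54.2% of MPP1, and in 52.1% and 46.0% of bled HSC and bled MPP1. Irf1 gave 32.0%, 49.1% and 45.2% in HSC, 43.1% and 35.4% in MPP1, and 45.8% and 38.0% after bleeding, again with overlap. The mean share over all 35 genes was 26.9% and 32.0% on HSC plates 1 and 2. HSC plate 3 had 16.7%, the MPP1 plates 17.8% and 17.7%, bled HSC 19.1% and bled MPP1 20.9%.

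Wells labelled with no cell set the background. There the mean share over the 35 genes was 12.0%, 3.10% and 1.82% for HSC plates 1, 2 and 3, 3.06% and 3.74% for MPP1, and 7.62% and 3.65% for bled HSC and bled MPP1. HSC plate 1 therefore had the highest background of the normal plates. Oasl2 was detected in 47.6% of its no-cell wells, more often than in its cells (40.0%). On HSC plate 1, 30 of 35 members were detected in a larger share of cells than of no-cell wells, and Ifit3, Isg15, Oasl2, Oas3 and Mx1 were not. On the other 6 plates the count was between 28 and 35.

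The number of members detected per cell was strongly uneven. The median was 8, 10 and 6 for HSC plates 1, 2 and 3. Each MPP1 plate had 6 and each bled plate 7, while no-cell wells had medians of 4, 1, 1, 1, 0, 2 and 1 in the same order of plates. Most cells therefore had a handful of these transcripts. The highest cell had 28, 29 and 18 members on HSC plates 1, 2 and 3, 24 and 17 for MPP1, 28 for bled HSC and 18 for bled MPP1.

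**Figure D2:**
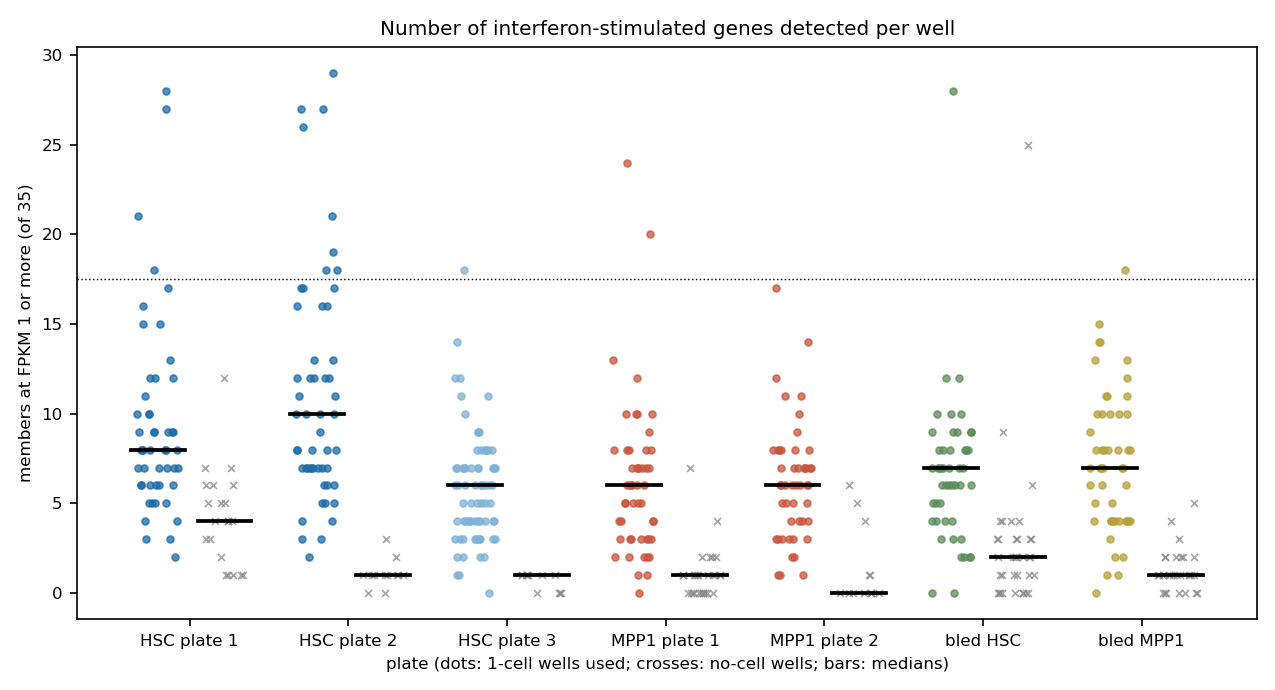
Number of the 35 genes at FPKM 1 or more in each 1-cell well used (dots) and each no-cell well (crosses), by plate, with medians as bars and a dotted line below 18 genes. Plate medians lie between 6 and 10 in cells, and 12 of the 17 cells above the line stand on HSC plates 1 and 2.

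A small set of cells held 18 or more of the 35 transcripts, a line drawn with the values known. They numbered 4 of 50 cells on HSC plate 1 (8.00%, exact Clopper-Pearson 95% interval 2.22 to 19.2) and 8 of 53 on HSC plate 2 (15.1%, 6.75 to 27.6). HSC plate 3 had 1 of 73 and MPP1 plate 1 had 2 of 51. MPP1 plate 2 had 0 of 48 (exact upper limit 7.40%), and each bled plate had 1. These intervals cover counting error only. The cells just under the line, with 12 to 17 members, numbered 8, 13 and 3 on the HSC plates, 2 and 3 for MPP1, 2 for bled HSC and 6 for bled MPP1. The 35 genes made up 0.26% to 4.50% of total FPKM in the 17 cells, against plate medians of 0.087% to 0.28% over cells.

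These 17 cells held between 1494 and 4498 detected genes, 8 of them above and 9 below the median of their plate. All 17 had Rtp4, a chaperone of membrane receptors, which was detected in 26.7% of the other 356 cells. Ifi44 was detected in 16 of them, against 25.8% of the others. Usp18, the protease that removes ISG15 and damps interferon receptor signalling, was detected in 14, against 11.5%. Oas2, a sensor that makes the RNase L activator, was detected in 14, against 7.87%. Ifit3 was detected in 10 of 17 and in 4 of the other 356 cells. Since these cells were chosen by the same genes, the contrast is a description only. Only 1 of the 17 had any plasmacytoid dendritic cell marker other than Tcf4, and the median number of neutrophil, B cell, T and NK cell and erythroid markers was 0 in them and in the other cells. Of 7 monocyte and macrophage markers the median detected was 1 in both. Of 5 megakaryocyte markers it was 0 in the 17 cells and 1 in the other cells.

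The number of members detected varied more between cells than independent detection would give. The variance of the number detected was 4.92 and 6.32 times the value for independent genes on HSC plates 1 and 2 and 2.32 times on HSC plate 3. The MPP1 plates had 4.23 and 2.57, bled HSC 3.91 and bled MPP1 3.21. The bled HSC value was 1.26 in cells with at least 2000 genes, which leaves out its cell with 28 members. In no-cell wells the same ratio ran from 0.45 on HSC plate 3 to 7.96 on the bled HSC plate. The ratio was not computed for other genes, so it does not show co-variation particular to the members. The number of genes per cell was related to the number of members with r = 0.10 and 0.27 on HSC plates 1 and 2 but 0.56 on MPP1 plate 2 and 0.53 on the bled MPP1 plate (across cells, which share plate and amplification).

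Between pairs of members the correlations were small. Across cells of HSC plate 2 the median Pearson correlation of log2(FPKM + 1) over 528 member pairs was 0.22, against 0.02 for all gene pairs. It was 0.10 on HSC plate 1, 0.12 on MPP1 plate 1 and 0.11 on the bled HSC plate, against 0.00, 0.04 and 0.01. On HSC plate 3, MPP1 plate 2 and the bled MPP1 plate it was 0.01, 0.03 and 0.04, against 0.01, 0.03 and 0.05, so these medians lay at the level of all pairs. Pairs with r over 0.3 still made up 5.71% and 10.0% of member pairs on HSC plate 3 and the bled MPP1 plate, against 1.63% and 5.88% of all pairs, and 3.95% against 5.08% on MPP1 plate 2. The pair with the highest mean over plates was Ddx58, the RNA helicase RIG-I, with Rtp4 (mean r = 0.23, between 0.02 and 0.47). Of 136 pairs measured on all 7 plates, 6 were positive on every plate.

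The genes outside the 35 that varied most like them included several known interferon-induced genes. Each gene's log2(FPKM + 1) was correlated, within each plate, with the number of members detected, both as residuals on the number of genes per cell. Of 4618 genes detected in at least 10% of cells on each plate, 9 of the 10 highest are given here. The interferon-inducible GTPases Tgtp2, Irgm1, Iigp1 and Igtp had a mean r over 7 plates of 0.37, 0.33, 0.33 and 0.33. Ube2l6, the conjugating enzyme for ISG15, had 0.31, and Ifi205, Oas1g, Sp100 and Gvin1 had 0.30, 0.29, 0.28 and 0.28. The median over all ranked genes was -0.00 and the 99th percentile 0.15. Oas1g is a near-identical neighbour of Oas1a, so reads may be split between them.

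**Figure D3:**
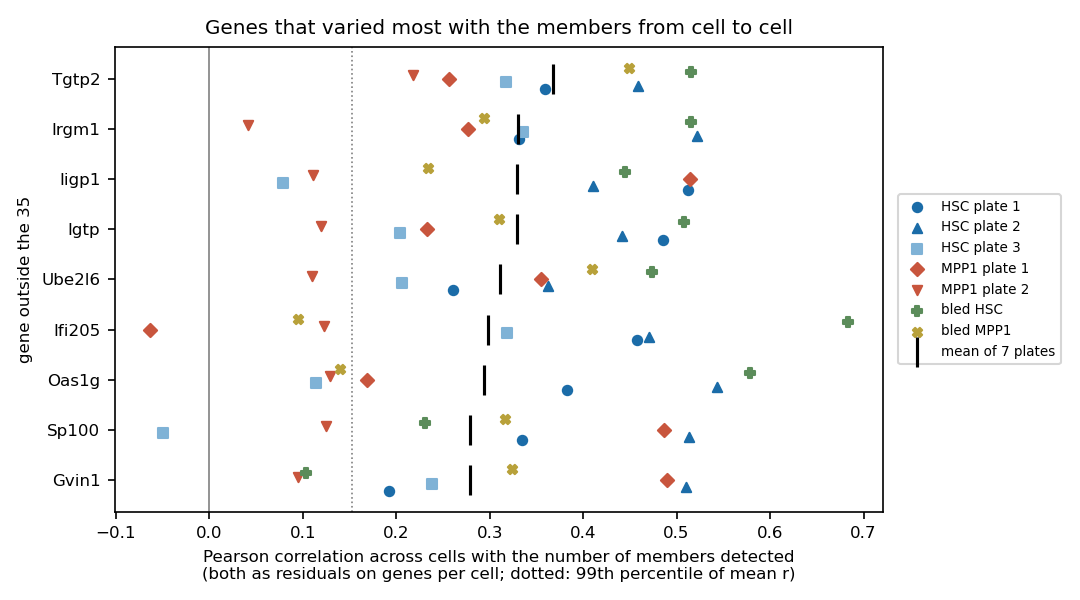
Pearson correlation across cells of each plate (symbols) between a gene's log2(FPKM + 1) and the number of the 35 genes detected, both as residuals on genes per cell, for 9 of the 10 most alike genes outside the 35, with the mean as a black bar. Tgtp2 and Irgm1 are positive on all 7 plates, and Ifi205 and Sp100 are each below 0 on 1 plate.

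MPP1 and HSC of normal mice were compared next, since the 2 gates differ only in CD34. Mean FPKM over the cells of each plate was put on the log2(FPKM + 1) scale, which understates changes of low genes, and tested with limma over 9833 genes on 4 plates. Of the 35 members, 34 had lower values in MPP1 and only Dtx3l a higher one, with a median log2 difference of -1.66 (-0.04 over all genes). Among all 9833 genes, 5077 had lower values in MPP1. No member passed the adjusted threshold of 0.05, and 0 of 9833 genes were called lower (0%). At an unadjusted p under 0.05, 21 of 35 members were lower, against 4.22% of all genes, but 11 without HSC plate 1 (3.05% of all genes) and 8 without HSC plate 2 (4.32%). For 25 members both MPP1 plates lay below both HSC plates, against 19.9% of all genes. Averaging log2 values over cells instead gave 3 members at an adjusted p under 0.05 (0.193% of all genes).

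The comparison rested on few cells per gene. Over the members, the single highest cell of a plate supplied a median of 31.9% and 32.1% of the summed FPKM on HSC plates 1 and 2 and of 48.2% and 53.0% on the MPP1 plates. The share of cells was therefore tested as well, on the log-odds scale with limma over 9014 genes, of which 32 members could be tested. All 32 had a lower share in MPP1. Members were partly detected in the same cells, so these are not 32 separate observations. Irf7 passed the adjusted threshold, against 0.155% of all genes called lower. At an unadjusted p under 0.05, 14 members were lower, against 2.98% of all genes. For 23 members the plates did not overlap, against 15.3%. With 1 plate left out, 1 of the groups holds a single plate. The log-odds difference of Irf7 then ranged from -2.33 to -1.22.

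**Figure D4:**
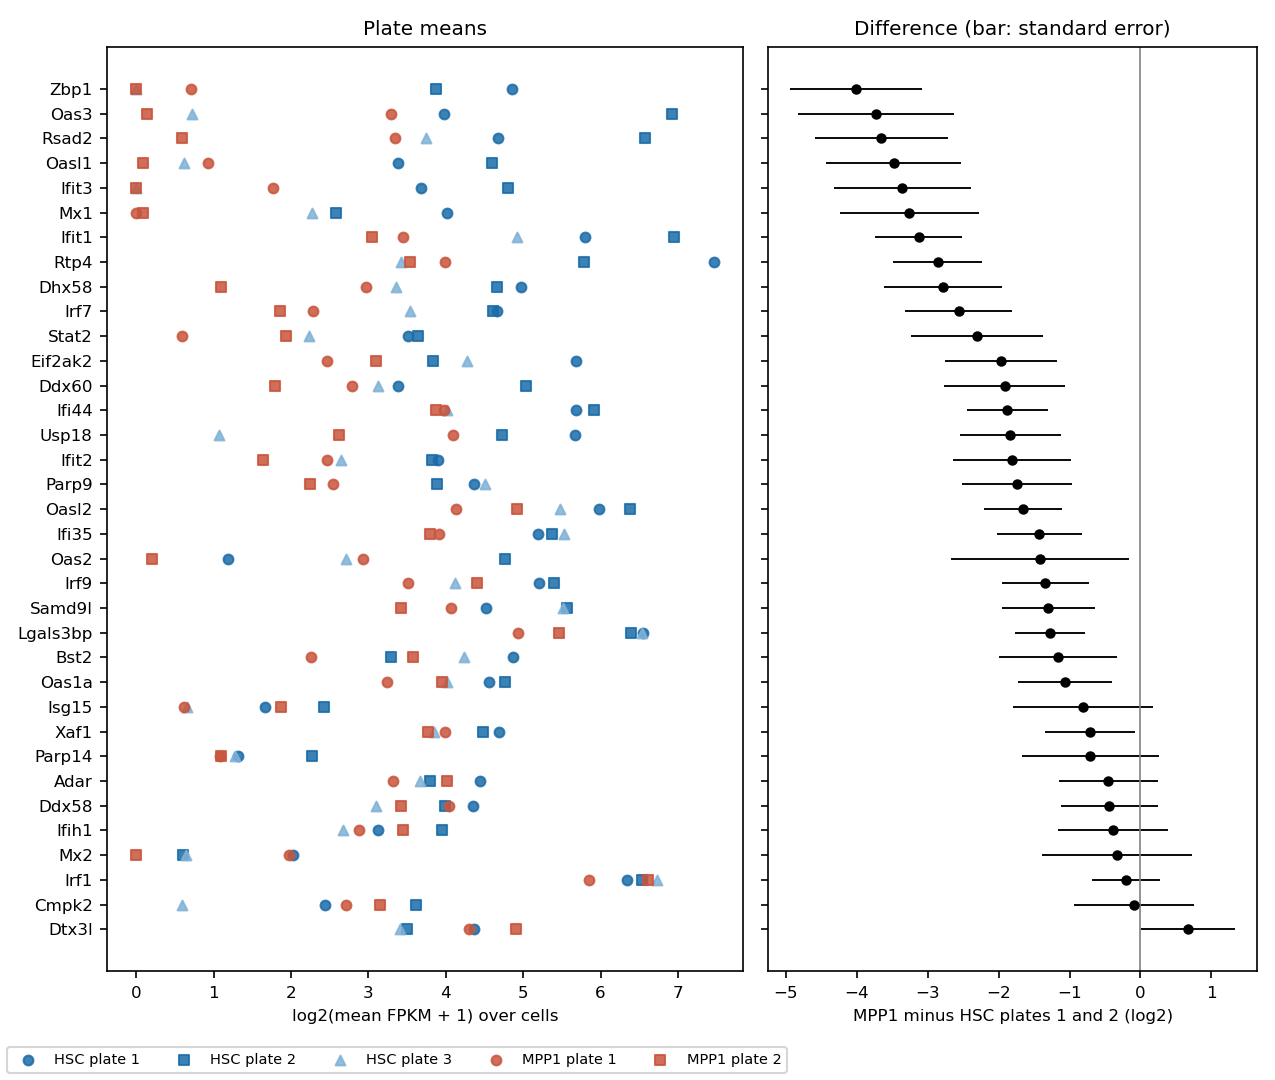
Left, log2(mean FPKM + 1) of each member on HSC plates 1, 2 and 3 and MPP1 plates 1 and 2. Right, MPP1 minus HSC plates 1 and 2 with its standard error from limma. Zbp1, Oas3 and Rsad2 have the lowest differences (-4.01, -3.74 and -3.65), and Dtx3l alone is above 0 (0.67).

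Among the transcription factors, Irf7, the master regulator of type I interferon genes, was detected in 30.0% and 37.7% of HSC on plates 1 and 2 and in 3.92% and 12.5% of MPP1. The groups did not overlap, and the share fell in MPP1 by 1.77 on the log-odds scale (SE 0.41, adjusted p = 0.0468 by limma). Its mean was 24.2 and 23.5 FPKM in HSC and 3.86 and 2.62 in MPP1, a log2 difference of -2.57 (SE 0.76, adjusted p = 0.504). HSC plate 3 lay at 9.59% of cells, inside the MPP1 range. With it added to the HSC plates no member passed the adjusted threshold. Irf7 itself lost that threshold in 7 alternative settings. Leaving out HSC plate 1 or MPP1 plate 1 also left no member past it. Stat2, part of the interferon-activated complex with IRF9, was detected in 26.0% and 24.5% of HSC and in 3.92% and 8.33% of MPP1 (log-odds -1.58, SE 0.43, adjusted p = 0.131). In no-cell wells Stat2 was detected in 14.3% and 0% on HSC plates 1 and 2 and in 3.57% and 0% on the MPP1 plates. Irf9 was at 35.8 and 41.1 FPKM in HSC and 10.4 and 20.1 in MPP1, and Irf1 at 80.1 and 91.8 against 56.6 and 97.1, where the plates overlapped.

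The IFIT proteins bind viral RNA that lacks the cap structure of host messenger RNA, and their 3 genes neighbour each other on chromosome 19. Ifit1 was at 54.7 and 123 FPKM on HSC plates 1 and 2 and at 9.88 and 7.25 on the MPP1 plates, with the smallest p of the 35 (log2 difference -3.13, SE 0.62, adjusted p = 0.206). On HSC plate 2 a single cell supplied 73.4% of its sum. It was detected in 30.0% and 17.0% of HSC and 11.8% and 6.25% of MPP1. In no-cell wells Ifit1 was detected in 23.8% and 8.33% on HSC plates 1 and 2 and in 0% on both MPP1 plates. Ifit3 was at 11.9 and 27.0 FPKM in HSC and at 2.41 and 0 in MPP1 (-3.36, SE 0.96, adjusted p = 0.478), from 2 and 7 HSC cells and a single MPP1 cell. Ifit2 was at 13.9 and 13.2 FPKM against 4.53 and 2.10. The 3 genes are related in sequence, so some reads may be shared between them.

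The promoters were searched for a sequence of the kind named above. In RefSeq promoters of build GRCm38.p6, from 250 bases before to 50 after each start, the motif TTTCNNTTTC or its reverse complement GAAANNGAAA was searched on both strands, counting overlapping matches. Of 26 members with a promoter in the table, 12 held it, against 3.44% of all 32851 promoters and 3.99% of 27025 genes. Those 12 were Ifit1, Ifit3, Isg15, Stat2, Oas1a, Oas3, Rsad2, Ddx58, Ifih1, Ddx60, Bst2 and Eif2ak2. A match is a description of letters and not evidence of binding. Parp9, Parp14, Zbp1, Usp18, Rtp4, Oas2, Dhx58, Mx1 and Mx2 had no promoter entry. The 250 bases before the start are printed for Ifit1, Ifit3 and Rsad2, which were among the 8 members with the smallest p in the comparison of means, and for Isg15, which held the most matches. Capitals mark the motif.
Ifit1, chr19:34640639-34640888, plus strand: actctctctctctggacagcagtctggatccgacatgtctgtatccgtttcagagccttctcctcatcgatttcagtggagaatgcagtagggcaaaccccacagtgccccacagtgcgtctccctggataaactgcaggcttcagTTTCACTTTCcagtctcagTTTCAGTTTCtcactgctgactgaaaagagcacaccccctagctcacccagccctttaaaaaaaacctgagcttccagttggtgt
Ifit3, chr19:34583279-34583528, plus strand: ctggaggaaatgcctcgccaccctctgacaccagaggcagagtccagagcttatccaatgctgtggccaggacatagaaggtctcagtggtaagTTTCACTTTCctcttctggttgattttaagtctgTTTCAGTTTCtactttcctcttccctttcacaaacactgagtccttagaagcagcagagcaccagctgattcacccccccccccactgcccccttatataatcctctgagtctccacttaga
Rsad2, chr12:26456453-26456702, minus strand: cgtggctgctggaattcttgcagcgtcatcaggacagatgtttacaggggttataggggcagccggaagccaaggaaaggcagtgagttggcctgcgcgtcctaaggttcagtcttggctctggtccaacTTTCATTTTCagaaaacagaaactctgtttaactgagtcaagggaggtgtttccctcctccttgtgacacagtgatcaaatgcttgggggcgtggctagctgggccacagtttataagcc
Isg15, chr4:156200819-156201068, minus strand: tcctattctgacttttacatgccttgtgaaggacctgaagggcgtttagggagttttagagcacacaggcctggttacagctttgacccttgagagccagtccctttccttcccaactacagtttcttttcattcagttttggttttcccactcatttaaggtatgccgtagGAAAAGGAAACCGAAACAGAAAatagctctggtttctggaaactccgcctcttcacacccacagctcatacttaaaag
Ifit1 and Ifit3 each hold 2 separate copies, the later of them ending 76 and 113 bases before the start, respectively. Isg15 holds 3 overlapping matches that form a single run. The 12 members with a match had a median MPP1 minus HSC log2 difference of -1.94 (between -3.74 and -0.38), and the 14 without one had -1.32 (between -3.48 and 0.67), so the ranges overlapped widely.

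The OAS proteins sense double-stranded RNA. Oasl2 was detected in 40.0% and 58.5% of HSC and in 23.5% and 25.0% of MPP1 (log-odds -1.08, SE 0.37, adjusted p = 0.359 by limma). In no-cell wells Oasl2 was detected in 47.6% and 8.33% on HSC plates 1 and 2 and in 3.57% and 0% on the MPP1 plates. Its mean was 62.0 and 82.6 FPKM against 16.5 and 29.2, with no overlap between the groups. Oasl1, a repressor of Irf7 translation, was at 9.42 and 23.2 FPKM in HSC and at 0.90 and 0.060 in MPP1 (-3.48, SE 0.95, adjusted p = 0.443). On HSC plate 1 a single cell supplied 97.7% of its sum. Oas3 was at 14.7 and 121 FPKM in HSC and at 8.81 and 0.096 in MPP1 (-3.74, SE 1.10, adjusted p = 0.504). Oas3 was detected in 8.00% and 15.1% of HSC and in 21.6% and 2.08% of MPP1, so its shares overlapped. Oas1a was at 22.5 and 26.3 against 8.49 and 14.5 FPKM, and Oas2 overlapped between the groups in mean level but not in the share of cells (16.0% and 26.4% against 13.7% and 4.17%).

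Among the nucleic acid sensors, Zbp1, which senses left-handed nucleic acid and triggers necroptosis, had the lowest difference in MPP1. It was at 27.9 and 13.7 FPKM on HSC plates 1 and 2, at 0.64 on MPP1 plate 1 and listed at 0 on MPP1 plate 2 (-4.01, SE 0.93, adjusted p = 0.297). It was detected in 16.0% and 17.0% of HSC and in 1 of 99 MPP1 cells (log-odds -2.47, SE 0.72, adjusted p = 0.203). HSC plate 3 had it in 0 of 73 cells, which allows a share of up to 4.11% (3 divided by the number of cells). Dhx58, which encodes the regulator LGP2, was detected in 28.0% and 28.3% of HSC and 11.8% and 12.5% of MPP1 (adjusted p = 0.467 by limma). Eif2ak2, the kinase PKR that halts translation, was at 50.2 and 13.2 FPKM against 4.53 and 7.57. Ddx58 and Ifih1, which encode the sensors RIG-I and MDA5, overlapped between the groups in mean level.

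Of the remaining effectors, Rtp4 was at 176 and 54.1 FPKM on HSC plates 1 and 2 and at 14.9 and 10.6 in MPP1 (-2.86, SE 0.63, adjusted p = 0.286). It was detected in 44.0% and 49.1% of HSC and 21.6% and 25.0% of MPP1 (log-odds -1.03, SE 0.36, adjusted p = 0.382). Ifi44 was detected in 48.0% and 47.2% of HSC and in 15.7% and 16.7% of MPP1 (log-odds -1.50, SE 0.36, adjusted p = 0.0522). Rsad2, which encodes viperin, was at 24.6 and 94.2 FPKM against 9.16 and 0.51 (-3.65, SE 0.94, adjusted p = 0.404), and a single cell supplied 86.6% of the sum on HSC plate 2. Usp18 was detected in 24.0% and 30.2% of HSC and in 9.80% and 10.4% of MPP1 (log-odds -1.13, SE 0.39, adjusted p = 0.374). In no-cell wells Usp18 was detected in 19.0% and 0% on HSC plates 1 and 2 and in 3.57% and 0% on the MPP1 plates. In the same order Ifi44 had 28.6%, 8.33%, 3.57% and 7.69%, and Rtp4 19.0%, 8.33%, 0% and 0%. HSC plate 3 had Usp18, Ifi44 and Rtp4 in 6.85%, 26.0% and 17.8% of its cells. The restriction factor Bst2, the RNA-editing enzyme Adar, the ubiquitin-like Isg15, and Cmpk2 and Mx2 overlapped between the groups in mean level. Laboratory mice of the C57BL/6 strain are known to carry a defective Mx1. Mx1 was at 15.2 and 5.00 FPKM in HSC and at 0 and 0.061 in MPP1.

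Other quantities moved with this comparison. Ly6a, the Sca-1 antigen gene and itself inducible by interferon, was at 422 and 314 FPKM in HSC and 72.9 and 57.1 in MPP1. The 16 immediate early genes, which rise with cell handling, were detected in a mean of 48.5% and 48.8% of HSC and 65.7% and 67.7% of MPP1, and 5 of the 15 tested passed the adjusted threshold in the shares. Markers of T and NK cells were detected in a mean of 2.00% and 2.52% of HSC and 7.19% and 6.94% of MPP1, with Cd3d, Cd3e, Cd3g and Gzma not detected on any of these 4 plates. The mean share of the 35 genes in no-cell wells was highest on HSC plate 1 as given above. The part of these in the result was not tested. Monocyte and macrophage markers were detected in a mean of 9.14% and 11.3% against 9.80% and 7.44% of cells, with summed mean levels of 220 and 148 against 143 and 101 FPKM, and their part was not tested.

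HSC plate 3 did not share the levels of the other HSC plates. For 26 of 35 members its mean FPKM was below both HSC plates 1 and 2, against 34.7% of all genes, and for Parp9, Irf1 and Ifi35 it was above both. The share of cells was below both for 29 members, against 46.5% of all genes. Its median member level was 3.41 on the log2 scale, against 4.52 and 4.61 on HSC plates 1 and 2 and 2.97 and 3.04 on the MPP1 plates. With HSC plate 3 added, 17 members did not overlap between HSC and MPP1 in mean level, against 12.1% of all genes, and 15 were lower at an unadjusted p under 0.05 (4.2% of all genes). In shares of cells 6 members did not overlap (5.43% of all genes), 5 were lower at an unadjusted p under 0.05 (1.62%), and 0 at an adjusted p under 0.05 by limma (0.0334%). This plate stands in a separate table, its library kit differs, and its note on the animals gives normal as well as bled mice. Plate, table, preparation and bleeding therefore cannot be told apart.

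Upstream genes of the pathway were read from lists. None of the 9 interferon genes in the tables was detected in more than 1 of 373 cells. Ifna2 and Ifng were each detected in 1 cell and the other 7 in none. Detection in none allows a share of up to 0.804% (3 divided by the number of cells). The receptor genes Ifnar1 and Ifnar2 were detected in 116 and 87 cells. Of 5 receptor genes tested, none reached an unadjusted p under 0.05 in either the means or the shares. Of 5 kinases and STATs, none did in the means and 2 were lower at that level in the shares. Jak1, a kinase of the receptor, was detected in 92.0% and 94.3% of HSC and 84.3% and 77.1% of MPP1 (log-odds -1.09, SE 0.43, adjusted p = 0.494). Of 7 genes that induce interferon, Myd88 alone was lower in the means at an unadjusted p under 0.05, and of 6 negative regulators none was. Of 18 other interferon-induced genes 17 had lower means in MPP1, 4 of them at an unadjusted p under 0.05. Of that list Ifi203, a member of the HIN-200 family of DNA-binding proteins, passed the adjusted threshold in the shares: it was detected in 90.0% and 96.2% of HSC and in 74.5% and 60.4% of MPP1 (log-odds -1.84, SE 0.43, adjusted p = 0.0468).

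Bleeding was examined with 1 plate of each cell type from bled mice, so that bleeding, plate and table cannot be told apart. Cell type was a covariate in a limma fit of 6 plates over 10017 genes. No member passed the adjusted threshold, and 0% of genes were called in either direction. At an unadjusted p under 0.05, 1 member was lower, against 2.46% of all genes, and 2 were higher, against 3.39%. In all, 23 members had lower and 12 higher values in bled mice, with a median of -0.43 (0.01 over all genes). Over both cell types together, no member had both bled plates below all normal plates (6.52% of all genes), and Oas1a alone had both above (7.94%).

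Ifit1 had the smallest p. It was at 54.7 and 123 FPKM on HSC plates 1 and 2 and 10.5 on the bled HSC plate, while MPP1 had 9.88 and 7.25 and bled MPP1 0.90 (log2 difference -2.59, SE 0.59, adjusted p = 0.446). Each bled plate was below both normal plates of its cell type. Oas1a was at 22.5 and 26.3 FPKM in HSC and 56.9 in bled HSC, and at 8.49 and 14.5 in MPP1 and 29.2 in bled MPP1 (1.25, SE 0.50, adjusted p = 0.807). A single cell supplied 77.5% of the bled HSC sum of Oas1a, whose share of cells (22.9%) was below that of both HSC plates. Ifit3 was at 48.0 FPKM in bled HSC, from a single cell, and 6.81 in bled MPP1 (1.72, SE 0.74, adjusted p = 0.830). The other members named by the rule, Oasl1, Oasl2, Cmpk2, Ifit2 and Oas3, had log2 differences of -2.00, -0.94, -1.55, -1.36 and -2.28 with adjusted p between 0.859 and 0.874 by limma.

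Bled HSC and bled MPP1 were then set against their own normal plates. In bled HSC the share of cells was below both HSC plates for 26 of 35 members, against 28.9% of all genes, and above both for 1, against 31.9%. In mean FPKM 20 members lay below and 8 above both HSC plates, against 31.2% and 31.9% of all genes. In bled MPP1 the share of cells was above both MPP1 plates for 16 members, against 51.9% of all genes. It was below both for 7, against 16.2%. In mean FPKM 16 members lay above and 11 below both MPP1 plates, against 36.4% and 25.4% of all genes. An interaction term found 0 members at an adjusted p under 0.05 by limma, with 5 members higher and 1 lower at an unadjusted p under 0.05 (3.17% and 1.93% of all genes). Dhx58 had the smallest p: bled HSC had 3.43 FPKM where HSC had 30.4 and 24.3, and bled MPP1 had 33.4 where MPP1 had 6.82 and 1.13 (5.75, SE 1.41, adjusted p = 0.954). Oasl1, Mx1, Stat2 and Oas3 had positive terms of 3.99, 3.62, 3.90 and 5.92, and Dtx3l, Zbp1 and Lgals3bp had -2.61, 3.30 and 1.45, with adjusted p between 0.954 and 0.964. A difference in response between HSC and MPP1 was thus not detected by this test, with 1 bled plate each.

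In the bulk populations each library was dominated by 1 or a few members, and in bulk RNA fewer cells of a type cannot be told apart from less RNA per cell. There are no replicates, so only levels are given. Stat2 had the widest range (8.07 on the log2(FPKM + 1) scale): it was 0 at lowest, 0.69 at the median and 267.9 FPKM in MPP2, with 88.3 in preMegE and 33.8 in GMP-11. Oasl2 ranged from 0 over a median of 3.66 to 240.8 FPKM in MPP4, with 168.7 in preGM and 108.3 in MKP. Oas1a was at 220.6 FPKM in preGM and at a median of 0.56. The highest values of these 3 genes stood in 3 different populations.

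**Figure D5:**
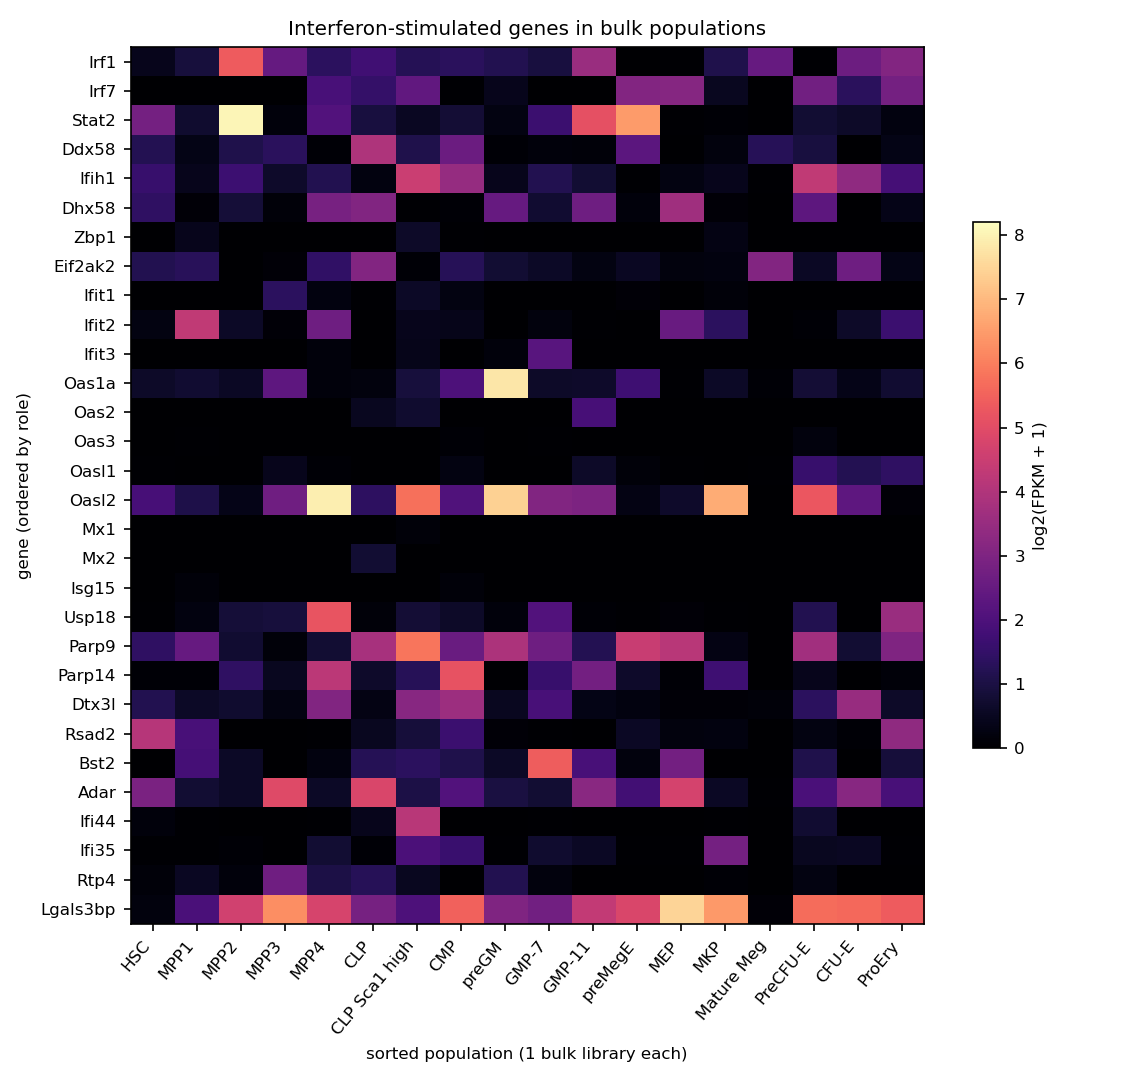
log2(FPKM + 1) of the 30 members of the bulk table (rows, ordered by role) in 18 sorted populations with 1 library each (columns). Bright squares are scattered, with Stat2 at 267.9 FPKM in MPP2 and Oasl2 at 240.8 in MPP4, and Mx1, Mx2, Isg15, Zbp1 and Oas3 stay under 1 FPKM in all 18.

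Lgals3bp was the most widely detected member in bulk, at 1 FPKM or more in 16 of 18 populations, with a median of 25.0 and a highest value of 177.4 FPKM in MEP. It was the top member in MPP3 (76.4 FPKM), CMP (43.9), PreCFU-E (50.1), CFU-E (48.5) and ProEry (39.8). Parp9, an ADP-ribosyltransferase family partner of Dtx3l, had a median of 4.85 and reached 56.1 FPKM in CLP Sca1 high, where it was the top member. Bst2 was listed at 0 in 5 populations and reached 41.1 FPKM in GMP-7. Adar led in CLP (27.0 FPKM), Stat2 in GMP-11, and Eif2ak2 in mature megakaryocytes with 7.45. The top member supplied between 30.5% and 78.2% of the members' summed FPKM. Between 3 of 30 members (mature megakaryocytes) and 14 of 30 (CMP) reached 1 FPKM. Of all genes, 8.71% and 30.6% did so in these 2 libraries, respectively.

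The bulk HSC and MPP1 libraries did not show the single-cell contrast. Of 30 members, 25 were above 0 in at least 1 of these libraries. By more than 1 on the log2 scale, 4 of the 25 were higher in bulk MPP1 (Ifit2, Parp9, Bst2 and Lgals3bp). Another 5 were lower by that much (Stat2, Rsad2, Ifih1, Dhx58 and Adar). Of the 9577 genes tested, 20.1% were higher and 13.9% lower past that line. The median difference was -0.00. Rsad2, the top member of bulk HSC, was at 16.5 FPKM there and 2.76 in MPP1, and Ifit2, the top member of bulk MPP1, at 18.8 there and 0.20 in HSC. Both bulk libraries are labelled CD34+, so the bulk pair does not repeat the single-cell gates.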

How the data were processed

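Single cells on 7 plates of 96 wells and 18 bulk populations of 1000 cells were sequenced; per the labels' protocols the cells were amplified by Smart-seq, and those of HSC plate 3 on a Fluidigm instrument. The authors deposited FPKM values per gene and library. TopHat 1.3.3, Cufflinks 1.2.1 and build mm9 (for HSC plate 3 also Bowtie2 2.2.1) are named in the submitters' processing notes. FPKM is relative to each library's own total, and low values did not fall on steps of whole reads, so depth is unknown. A value of exactly 0 can be a failed estimate. A repeat run of HSC plate 1 (96 samples) was not analysed here, and the columns of that plate may hold either run. Columns ending in a version mark were taken as the second replicate.

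The 35 members, the pathway and marker lists and the tests were chosen with earlier results of these data known. Plate means were tested as log2(FPKM + 1) with limma 3.58.1 (R 4.3.3; trend, Benjamini-Hochberg over all genes) after a filter of mean FPKM 1, and shares of cells as log-odds (0.5 added to each count, detected in 5% of cells on average). Members named with test values are the 8 with the smallest p in each comparison, the 6 detected in most cells, and in bulk the top member of each population and the 6 with the widest range. The 10 most alike genes, of which 1 is not reported here, and up to 3 genes per pathway list are named. The fit was tested on simulated data. Bulk libraries have no replicates and no test. Promoters came from RefSeq, another build than the files. Alternatives covered the pseudocount (0.1), filters, cells with 2000 genes, rescaling, averaging of log2 values, HSC plate 3, single plates left out and a replicate block.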

Additional observations from a re-analysis of the deposited data

Results flagged for a closer look

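Wells labelled with 2 or more cells entered no comparison, and they held these transcripts above the level of no-cell wells. Their median number of members detected was 9.5, 4.5 and 8 for HSC plates 1, 2 and 3, 8 and 9 for MPP1 plates 1 and 2, 9 for bled HSC and 13.5 for bled MPP1. The no-cell medians in the same order were 4, 1, 1, 1, 0, 2 and 1. Between 2 wells (HSC plate 2) and 16 wells (HSC plate 1) of this kind were present per plate. No test was made.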

How the results depend on the processing

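Values are given for MPP1 minus HSC first. In the plate means 0 members passed an adjusted p under 0.05 by limma, 3 when log2 values were averaged over cells, and 0 without any single plate. The median difference of -1.66 became -1.93 with a pseudocount of 0.1, -1.78 with a mean of at least 5 FPKM, -0.70 with averaged log2 values, -1.48 in cells with 2000 genes and -1.41 with HSC plate 3 added. Leaving out single plates gave medians from -1.64 to -1.45. In the shares the 1 call became 0 with detection at 5 FPKM, with no filter or with HSC plate 3 added, and 0 to 1 with single plates left out. At an unadjusted p under 0.05, 14 became 5 with HSC plate 3 added and 8 (without MPP1 plate 1) to 15 (without HSC plate 1) with single plates left out. For bled minus normal, the 1 member lower at an unadjusted p under 0.05 became 2 with a pseudocount of 0.1 (2.89% of all genes) or averaged log2 values (1.3%). It became 3 with no filter (1.9%) and 4 in cells with 2000 genes (2.42%). The 2 higher became 1 with a pseudocount of 0.1 (3.01% of all genes), no filter (3.43%) or no covariate (3.32%). They became 0 with averaged log2 values (7.11%) or cells with 2000 genes (3.38%). Ifit3 reversed to -0.069 with averaged log2 values and -1.18 in cells with 2000 genes, and Oas3 ranged from -5.24 without bled MPP1 to 0.68 without bled HSC. In the interaction the 5 members higher at an unadjusted p under 0.05 became 11 with averaged log2 values (6.1% of all genes, from 3.17%), a setting chosen after seeing the data. In bulk, of the 25 members above 0, a pseudocount of 0.1 gave 8 higher and 8 lower (37.1% and 23.5% of 9577 genes). A difference past 2 gave 1 and 3 (10.7% and 7.97%), against 4 and 5. The cause of these shifts was not tested. Among the named members, 98 of 104 alternative values in the means and 69 of 80 in the shares kept direction and side of the threshold. In the shares 7 values lost the threshold, all of them for Irf7, and 4 gained it. Read depth is unknown, so its part in undetected transcripts cannot be given.

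With the plate number as a replicate block, 5 members were lower at an adjusted p under 0.05 in the means (0.427% of all genes) and 3 in the shares (0.333%). Plates share only a number: deviations from the group mean of HSC plate 1 and MPP1 plate 1 had r = 0.0423 over 9833 genes.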

Other observations

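The no-cell well with the most members, B05 of the bled HSC plate, held 25 of the 35 with 963 detected genes. The well labelled B06 on the same plate was the 1-cell well with the most members there, 28 with 1494 genes, and 21 members were detected in both. Over the genes that are not members, log2(FPKM + 1) in the no-cell well had a Pearson correlation of 0.39 with that cell, against a median of 0.30 and a highest value of 0.35 with the other 47 cells of the plate. Genes within a well are not independent replicates. The 35 genes made up 3.64% and 2.71% of total FPKM in the no-cell well and in the cell. Without cells under 2000 genes, which leaves that cell out, the variance of the number of members on the bled HSC plate was 1.26 times the value for independent genes, against 3.91 with all cells used.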
